A study of Mus musculus with 18 samples.

Results

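The transcripts described here are 9 genes that mark B cells and plasma cells: Cd79a, Cd79b, Ms4a1, Cd22, Bank1, Pax5, Ebf1, Mzb1 and Xbp1. They were chosen by gene symbol from a count table of 21254 genes, and immunoglobulin segments were left out of the choice. All 9 were found, each as a single row, and all 9 passed the filter on low counts that left 15811 genes for testing.

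A B cell recognises antigen through a membrane immunoglobulin that cannot signal by itself. The signal is carried by the CD79A and CD79B chains, is set by co-receptors and by inhibitors such as CD22, and runs through a chain of kinases and adaptors. EBF1 and PAX5 switch on and hold this programme, and a B cell that becomes a plasma cell loses PAX5 and builds a secretory apparatus that depends on XBP1 and MZB1. The lung holds resident and circulating B cells, and the MHC class II used here to gate macrophages is also carried by B cells and dendritic cells.

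The libraries came from macrophage populations sorted from mouse lungs 24 h after inhalation of nebulized lipopolysaccharide (LPS) of Pseudomonas aeruginosa, of which 12.5 mg in 5 ml of saline was given over 15 min. All gates required CD45 and CD11b. The moMs (monocyte-derived macrophages) were MHC-II- Ly6C+, the trIMs (transitional interstitial macrophages, which the study also calls tnsIMs) were MHC-II+ Ly6C+, and the matIMs (mature interstitial macrophages) were MHC-II+ Ly6C-. Each was taken from WT mice, labelled B6.Cx3cr1tm1.1(cre)Jung/J, and from Ezr-KOm mice, in which the same Cre acts on a floxed Ezr, the gene of the cytoskeletal linker ezrin. The WT controls thus carried the Cre too, all mice were exposed to LPS, and animals were 3 to 5 months old and of both sexes. The Cx3cr1 promoter drives Cre in monocytes and macrophages, so B cells are not the cells in which Ezr was meant to be deleted. There were 3 libraries in each of the 6 groups, 18 in all. The listed sorting panel (CD45, CD11b, CD64, Ly6C, CD11c, Ly6G, Siglec-F, MHC-II and CD24) held no B220 antibody.

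Total counts ran from 16512783 to 48460995 per library. Levels are given as CPM, counts per 1000000 after TMM scaling, as mean ± SD with n = 3 unless single libraries are named. Ezr, which checks the genotype, was at 531 ± 53.6, 586 ± 83.8 and 661 ± 70.0 CPM in WT moMs, trIMs and matIMs and at 231 ± 63.7, 191 ± 57.4 and 135 ± 37.4 CPM in Ezr-KOm, and no library of one genotype reached the range of the other. The log2 difference was -1.20 in moMs (adjusted p = 0.0549, just above the threshold), -1.62 in trIMs (adjusted p = 0.00365) and -2.29 in matIMs (adjusted p = 7.73e-05), and that in moMs passed under some other settings and had an adjusted p of up to 0.382 without 1 library. The call in trIMs was lost without replicate 1 of the WT trIMs (-1.47, adjusted p = 0.0508). The macrophage marker Csf1r, the receptor for a macrophage growth factor, averaged 2571 CPM in WT moMs, 2354 in trIMs and 1473 in matIMs. Markers of other cells differed between the populations. The summed level of 11 dendritic cell markers was 147 to 209 CPM in moM, 432 to 709 in trIM and 5854 to 7997 in matIM libraries, that of 9 epithelial markers was highest in trIM libraries at 1776 to 4246 CPM, and that of 12 T cell markers stayed between 22.6 and 64.0 CPM in all 18. In such bulk samples, fewer cells of a type and less RNA per cell cannot be told apart.

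The members are spread over several chromosomes and are not one locus. In GRCm39 coordinates of the deposited table, Cd79a spans chr7:24596806-24601622 on the plus strand, Cd22 chr7:30564827-30579767, Cd79b chr11:106202167-106205588, Pax5 chr4:44524757-44710487, Ms4a1 chr19:11227039-11243605 and Bank1 chr3:135759124-136031827 on the minus strand, and Xbp1 chr11:5470659-5475893 and Ebf1 chr11:44508144-44898918 on the plus strand. All are protein coding. Reads from overlapping genes could not be separated by strand, since the library kit keeps no strand: an exon of Xbp1 shares 1526 bases with the oppositely oriented Ccdc117, and one of Pax5 shares 636 bases with 5730488B01Rik, in the current annotation.

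Sequence before the start was looked up because most members rose together. RefSeq promoter windows of 250 bases (GRCm38.p6) were found for 6 of the 9 genes. They are shown up to the first base that any annotated exon of the gene covers, placed on GRCm39 by an exact match, for the receptor chain that was nearly absent from moMs (Cd79a), one that moMs already hold (Bank1) and the one that did not rise (Xbp1). For Cd22 the 30 bases around the only motif found are shown, with the motif in capitals. They are, 5′ to 3′ in the direction of the gene, chr7:24596672-24596739 (plus), chr3:136031828-136032077 (minus), chr11:5470391-5470605 (plus) and chr7:30578483-30578512 (minus).
Cd79a: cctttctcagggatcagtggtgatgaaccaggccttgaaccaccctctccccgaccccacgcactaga
Bank1: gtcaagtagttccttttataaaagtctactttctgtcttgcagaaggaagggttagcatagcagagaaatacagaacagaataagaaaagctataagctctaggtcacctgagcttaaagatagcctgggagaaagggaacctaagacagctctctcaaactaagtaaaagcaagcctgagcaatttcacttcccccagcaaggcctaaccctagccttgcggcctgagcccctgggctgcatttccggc
Xbp1: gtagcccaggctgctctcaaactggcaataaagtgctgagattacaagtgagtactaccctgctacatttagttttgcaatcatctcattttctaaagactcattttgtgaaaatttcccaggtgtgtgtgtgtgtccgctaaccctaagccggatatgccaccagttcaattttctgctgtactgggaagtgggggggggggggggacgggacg
Cd22: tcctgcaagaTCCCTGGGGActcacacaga
The motifs searched on both strands were the EBF palindrome (TCCC and GGGA parted by any 2 bases), the octamer ATGCAAAT, the PU.1 motif GAGGAAGT, the unfolded protein response element TGACGTGG and the endoplasmic reticulum stress element (CCAAT and CCACG parted by any 9 bases). Only the first was met, in the Cd22 window, 49 to 40 bases before the RefSeq start, in a stretch with no annotated exon of the gene. That window lies inside the annotated span of Cd22, which starts at base 30579767 on the minus strand. Annotated Cd22 exons cover 102 of its 250 bases. The EBF palindrome is held by 0.787% of the 32536 distinct windows of this length, against 1.62% for the octamer and 2.45% for the PU.1 motif, 0.569% for the response element and 0.114% for the stress element. A match describes letters and is no evidence of binding, and a window without one says nothing of the factor.

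Cd79a, the signalling chain of the B cell receptor, rose in steps from moMs to trIMs to matIMs. Its level was 0.399, 0.331 and 0.0787 CPM in the WT moM libraries, from 7, 8 and 2 reads. It was 14.4, 12.1 and 14.8 CPM in WT trIMs, and 72.5, 51.3 and 46.4 CPM in WT matIMs. The groups did not overlap at either step. In Ezr-KOm it was 0.391, 0.386 and 0.837 CPM in moMs, 11.4, 14.0 and 30.4 CPM in trIMs, and 37.8, 29.3 and 70.6 CPM in matIMs. There the trIM and matIM ranges overlapped, because replicate 3 of the trIMs lay above the lowest matIM library. The log2 fold change in WT was 5.72 (SE 0.53, adjusted p = 1.1e-06) for trIMs against moMs and 2.04 (SE 0.36, adjusted p = 0.000479) for matIMs against trIMs. Cd79a entered the test only through its levels in trIMs and matIMs, so that its difference from moMs was in part set by the filter.

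Cd79b, the partner chain, did not share the near absence from moMs. WT moMs held 7.46, 8.91 and 12.2 CPM, WT trIMs 9.89, 12.6 and 15.6 CPM and WT matIMs 40.4, 30.4 and 31.3 CPM. The moM and trIM ranges overlapped, and all matIM libraries lay above both. The log2 difference was 0.41 between trIMs and moMs (95% interval -0.29 to 1.11, adjusted p = 0.396) and 1.42 between matIMs and trIMs (SE 0.32, adjusted p = 0.00332). In Ezr-KOm, Cd79b was 6.61, 9.18 and 9.78 CPM in moMs, 7.94, 11.2 and 16.6 CPM in trIMs and 19.5, 15.2 and 38.9 CPM in matIMs.

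**Figure D1:**
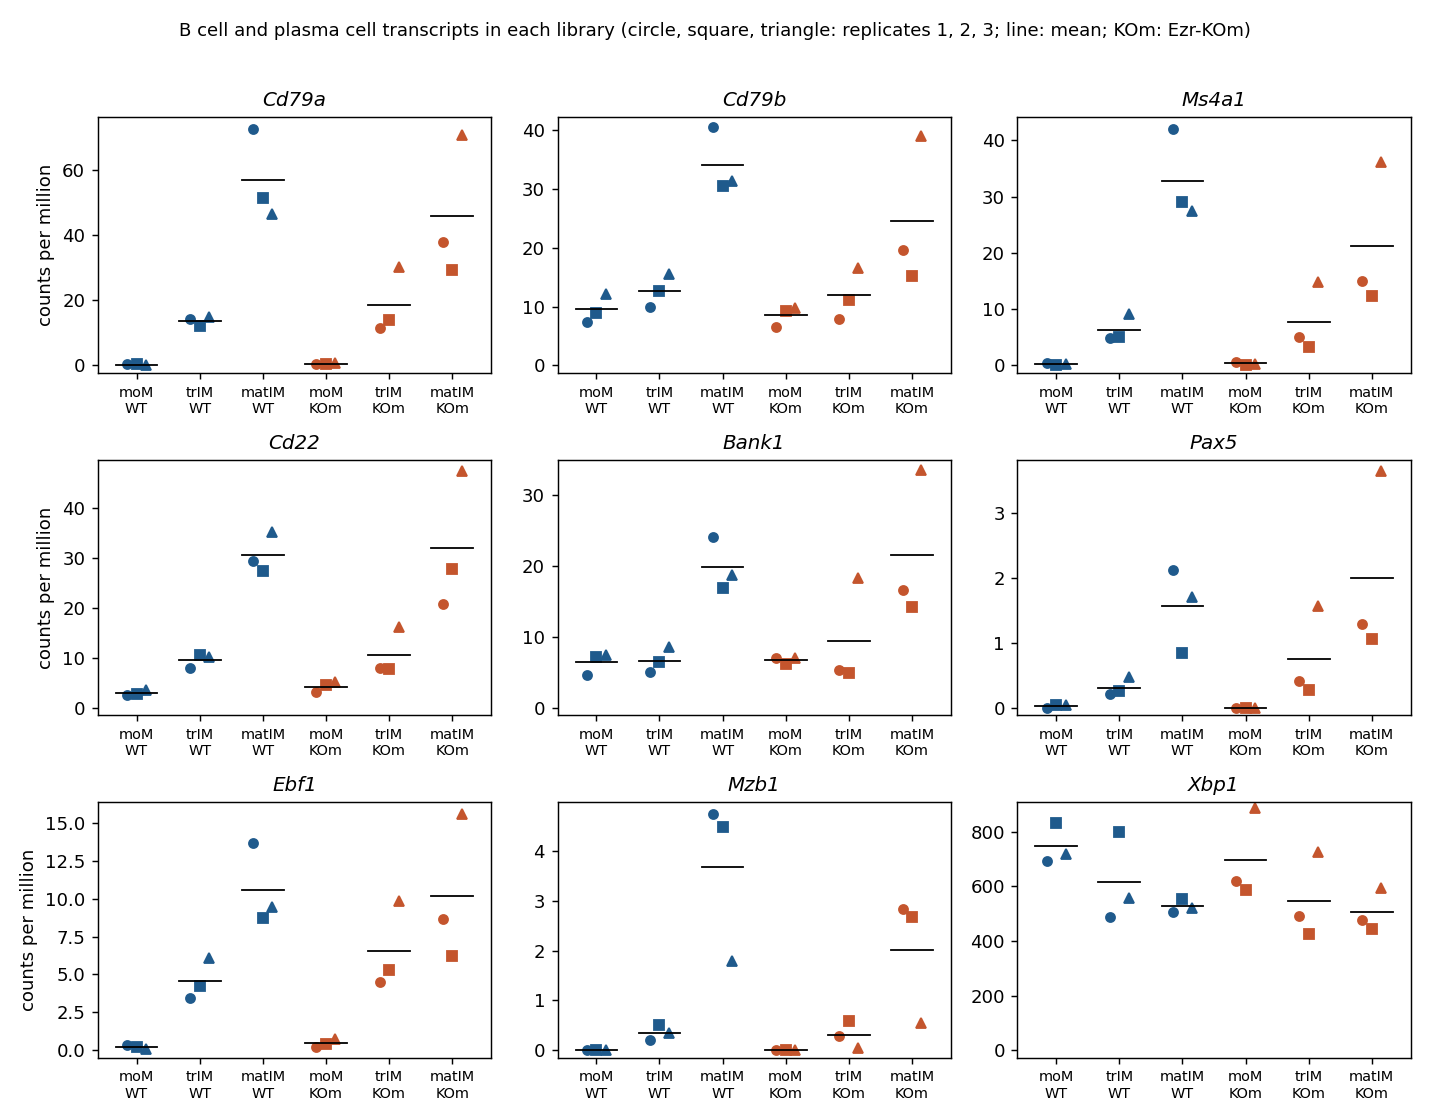
Level of each of the 9 transcripts (CPM, linear axis, a separate scale in each panel) in the 18 libraries by population and genotype (blue WT, orange Ezr-KOm, written KOm), with the group mean as a line. All but Xbp1 had their highest group means in matIMs, Cd79a from 0.270 CPM in WT moMs to 56.7 CPM in WT matIMs, while Xbp1 stayed between 428 and 886 CPM in all libraries.

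Ms4a1, which encodes the B cell surface protein CD20, rose at both steps in WT. It was 0.399, 0 and 0.197 CPM in WT moMs, 4.80, 5.01 and 9.13 CPM in WT trIMs and 42.0, 29.0 and 27.4 CPM in WT matIMs. In Ezr-KOm it was 0.696, 0.116 and 0.264 CPM in moMs, 5.11, 3.29 and 14.8 CPM in trIMs and 15.1, 12.3 and 36.1 CPM in matIMs. The WT groups were apart at both steps, and in Ezr-KOm replicate 3 of the trIMs lay between replicates 2 and 1 of the matIMs. The WT change from trIMs to matIMs was 2.37 on the log2 scale (SE 0.54, adjusted p = 0.00398).

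Cd22, an inhibitory co-receptor that binds sialic acid, was detected in every moM library and still rose at both steps. WT libraries held 2.68, 2.73 and 3.54 CPM in moMs, 7.97, 10.5 and 10.2 CPM in trIMs and 29.4, 27.3 and 35.2 CPM in matIMs. Ezr-KOm libraries held 3.09, 4.51 and 5.24 CPM in moMs, 7.94, 7.78 and 16.2 CPM in trIMs and 20.8, 27.8 and 47.5 CPM in matIMs. No population overlapped another in either genotype. The log2 steps were 1.67 (SE 0.32, adjusted p = 0.00106) and 1.68 (SE 0.30, adjusted p = 0.000553) in WT, and 1.30 (SE 0.31, adjusted p = 0.00755) and 1.60 (SE 0.30, adjusted p = 0.000821) in Ezr-KOm.

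Bank1, an adaptor that links the receptor to its kinases, rose only at the step from trIMs to matIMs in WT. It ranged from 4.67 to 7.40 CPM in WT moMs, from 5.01 to 8.58 CPM in WT trIMs and from 16.9 to 24.1 CPM in WT matIMs. The trIM and moM groups overlapped, with a log2 difference of 0.05 (95% interval -0.86 to 0.96). In Ezr-KOm the ranges were 6.25 to 7.09, 4.89 to 18.3 and 14.3 to 33.6 CPM, and the top trIM value came from replicate 3. Without that library the log2 difference of Bank1 between Ezr-KOm trIMs and moMs went from 0.47 to -0.38, neither of which passed the test.

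Ebf1, the transcription factor that opens the B lineage programme, ranged from 0.118 to 0.342 CPM in WT moMs, 3.42 to 6.07 CPM in trIMs and 8.71 to 13.7 CPM in matIMs, with no overlap. In Ezr-KOm it ranged from 0.217 to 0.749, 4.53 to 9.88 and 6.23 to 15.6 CPM, and trIMs and matIMs overlapped. The WT step from moMs to trIMs was 4.31 on the log2 scale (SE 0.53, adjusted p = 1.63e-05). That from trIMs to matIMs was 1.21 (SE 0.39, adjusted p = 0.0348) in WT and 0.63 (95% interval -0.19 to 1.46, adjusted p = 0.305) in Ezr-KOm. Ebf1 too entered the test only through trIMs and matIMs, so that its step from moMs was in part set by the filter.

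Pax5, which keeps a cell in the B lineage and is lost in plasma cells, was the least abundant member per length in trIMs and matIMs. Its reads numbered 0, 1 and 1 in WT moMs, 5, 4 and 12 in WT trIMs and 48, 20 and 46 in WT matIMs. In Ezr-KOm there were no reads in any moM library, 10, 14 and 37 in trIMs and 36, 31 and 87 in matIMs. The WT level was 1.57 ± 0.650 CPM in matIMs and 0.311 ± 0.140 CPM in trIMs. From the 2 reads in moMs, the ratio of WT matIM to moM read rates was 52.5, with a counting interval of 14.2 to 439. By group means, Ezr-KOm matIMs were at least 15.9-fold and trIMs at least 5.98-fold above moMs, taking 3 reads per library as the highest level that a count of 0 allows. These intervals and limits cover counting error only.

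Mzb1, a chaperone of the endoplasmic reticulum that helps to assemble immunoglobulin and is abundant in plasma cells, had no read in any of the 6 moM libraries. Those zeros allow at most 0.116 to 0.171 CPM. WT trIMs held 5, 8 and 9 reads (0.356 ± 0.149 CPM) and WT matIMs 107, 105 and 48 reads (3.67 ± 1.64 CPM). In Ezr-KOm there were 7, 29 and 1 reads in trIMs (0.304 ± 0.268 CPM) and 79, 78 and 13 reads in matIMs (2.02 ± 1.28 CPM). By group means, WT matIMs were at least 26.7-fold and Ezr-KOm matIMs at least 16.0-fold above moMs, and the trIMs at least 2.59-fold and 2.41-fold. These bounds do not hold for each library. Replicate 3 of the Ezr-KOm trIMs, at 0.0424 CPM, lay below what the moM zeros allow. Replicate 3 of the Ezr-KOm matIMs was at 0.545 CPM, and replicate 1 of the WT trIMs at 0.209 CPM. For matIMs against trIMs the log2 estimate of Mzb1 was 3.38 in WT (SE 0.75, adjusted p = 0.00506) and 2.61 in Ezr-KOm (SE 0.72, adjusted p = 0.0192), but Mzb1 entered the test only through its level in matIMs, so that these differences were in part set by the filter.

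Xbp1, a transcription factor that expands the secretory pathway and is used by many cell types as well as plasma cells, was different in level and in direction. Its WT libraries held 692, 832 and 718 CPM in moMs, 487, 798 and 559 CPM in trIMs and 507, 554 and 522 CPM in matIMs. Ezr-KOm libraries held 620, 585 and 886 CPM in moMs, 491, 428 and 726 CPM in trIMs and 479, 444 and 593 CPM in matIMs. WT matIMs all lay below WT moMs, as did 19.3% of all genes tested, and the other groups overlapped. The log2 difference of matIMs from moMs was -0.50 in WT (95% interval -0.96 to -0.04, adjusted p = 0.0953) and -0.47 in Ezr-KOm (95% interval -0.93 to -0.00, adjusted p = 0.129), and neither passed the threshold. With libraries of one genotype and number taken as one mouse, as a replicate block, the Ezr-KOm difference of trIMs from moMs, -0.35 without the block, passed at -0.36 (adjusted p = 0.0379). Under the same block the difference of matIMs from moMs passed at -0.50 in WT (adjusted p = 0.00349) and -0.45 in Ezr-KOm (adjusted p = 0.0073). The labels do not say whether same-numbered populations share a mouse.

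Levels of different genes can be compared only per length of transcript. Lengths came from Gencode M39, whereas reads had been counted on M29. The spans of Cd79a, Ebf1, Mzb1 and Xbp1 differ between the count table and M39, so that their values per length are approximate. Xbp1 ends at base 5475893 in the count table and at 5483027 in M39. Divided by the length of all annotated exons in kb, Xbp1 stood first in each group, with 76.1 ± 3.41 CPM per kb in WT matIMs, and Cd79a came next there with 37.3 ± 9.13, before Cd79b with 23.8 ± 3.88. The Cd79a and Cd79b ranges did not separate in WT trIMs, at 9.04 ± 0.954 and 8.87 ± 1.98 CPM per kb. In WT moMs the order was another one: Cd79b at 6.66 ± 1.70 CPM per kb came after Xbp1 and before Bank1 at 0.860 ± 0.205 and Cd22 at 0.592 ± 0.0962, and Cd79a was at 0.177 ± 0.111. In WT matIMs Cd22 (6.08 ± 0.811) and Ms4a1 (5.30 ± 1.30) differed by less than their spread, as did Bank1 (2.66 ± 0.501) and Mzb1 (2.55 ± 1.14) after them. Ebf1 at 1.09 ± 0.274 and Pax5 at 0.177 ± 0.0734 CPM per kb closed the order.

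The population comparisons ask how these transcripts differ between bulk populations sorted at one time by MHC class II and Ly6C. Of the 9 genes, 6 were higher in WT trIMs than in WT moMs at an adjusted p under 0.05 and none was lower, where 13% of all genes tested were higher and 8.61% lower. In WT matIMs against moMs 8 were higher, beside 13.4% of all genes (11.4% lower), and in WT matIMs against trIMs 8, beside 8.32% (10.2% lower). Ezr-KOm gave 6 for trIMs against moMs (9.23% of all genes, 5.04% lower), 8 for matIMs against moMs (12.5%, 10.7% lower) and 5 for matIMs against trIMs (8.37%, 9.85% lower), with no member lower. The gene that never rose was Xbp1. The counts against moMs, and those against trIMs as far as Pax5 and Mzb1 enter them, are no measure of how many members could have failed to rise. Cd79b, Cd22, Bank1 and Xbp1 reach the filter's limit of 0.415 CPM in all 6 groups, but Cd79a, Ms4a1 and Ebf1 do so only in trIMs and matIMs and Pax5 and Mzb1 only in matIMs, so that these 5 entered the test through the groups where they were high. Of the 4 others, Cd22 alone rose from moMs to trIMs, and Cd79b, Cd22 and Bank1 rose from moMs to matIMs, in both genotypes. Without Pax5 and Mzb1, the genes called for matIMs against trIMs were Cd79a, Cd79b, Ms4a1, Cd22, Ebf1 and Bank1 in WT and Cd79a, Cd79b, Cd22 and Bank1 in Ezr-KOm.

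**Figure D2:**
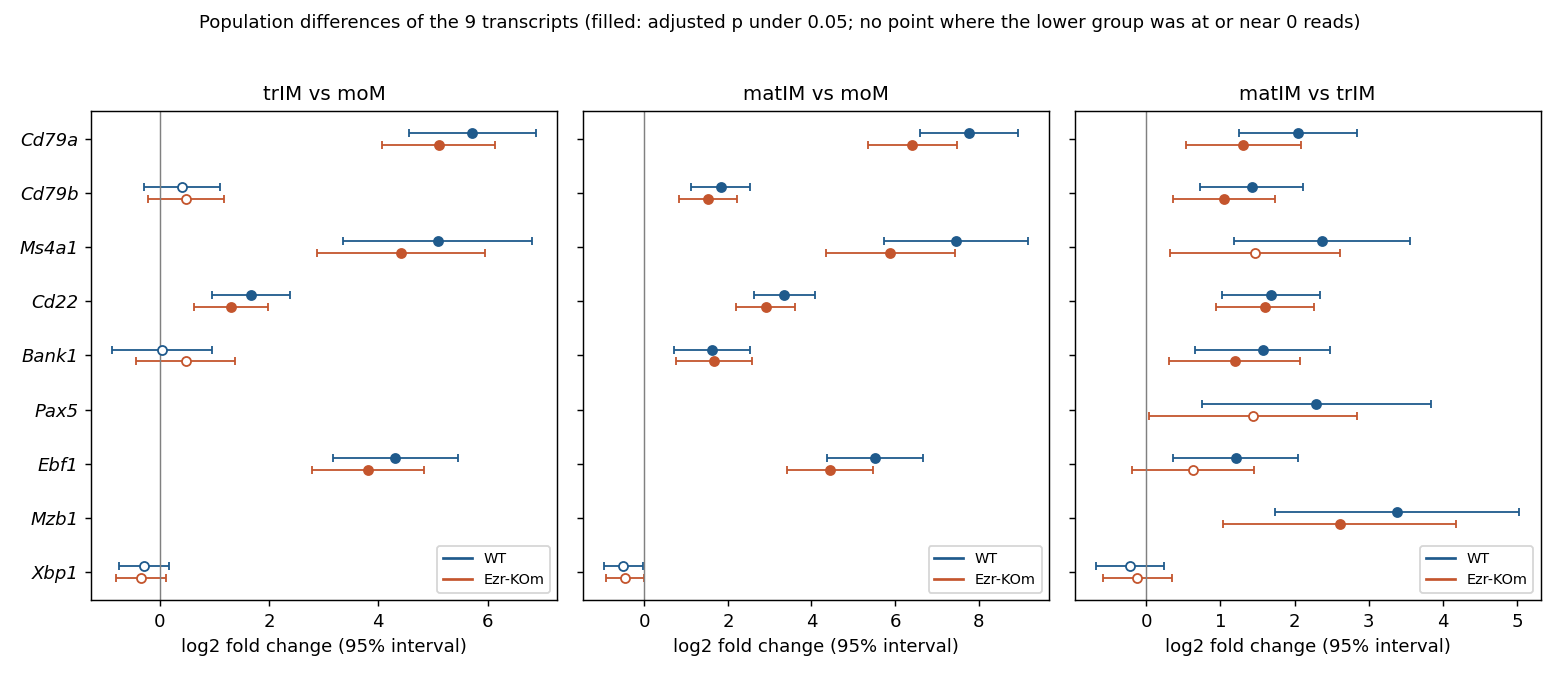
Log2 fold change of each transcript between populations (horizontal axis, with 95% intervals) in WT (blue) and Ezr-KOm (orange), filled where the adjusted p is under 0.05. Cd79b, Bank1 and Xbp1 have intervals that include 0 for trIMs against moMs, where those of Cd79a, Ms4a1, Cd22 and Ebf1 lie above 0, and Pax5 and Mzb1 have no point against moMs, where they had at most 1 read in a library.

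Replicates 1, 2 and 3 of Ezr-KOm weighed unequally on the comparison of matIMs with trIMs in that genotype. The genes called there were Cd79a at 1.31 (adjusted p = 0.0133), Cd79b at 1.04 (adjusted p = 0.0255), Cd22, Bank1 at 1.19 (adjusted p = 0.0499) and Mzb1. Ms4a1 at 1.47 (adjusted p = 0.0615) and Pax5 at 1.44 (adjusted p = 0.153) missed the threshold. Only Cd22 of the 9 had no overlap between the 2 groups, where 15.5% of all genes were higher without overlap. The number called was 1 without replicate 1 of the trIMs, 2 without replicate 2 of the trIMs, 2 without replicate 3 of the matIMs and 6 without replicate 3 of the trIMs. Cd22 was called in each of these. Cd79a (adjusted p of up to 0.121) and Cd79b (up to 0.263) were lost in the first 3 of these cases, and Mzb1 (up to 0.0731) without replicate 1 or 3 of the trIMs or replicate 1 or 2 of the matIMs. Bank1 was lost without 13 of the 18 libraries (up to 0.312), and also with no filter, a stricter filter, a robust fit or a fit of Ezr-KOm alone (0.0515 to 0.110). Ms4a1 at 2.28 (adjusted p = 0.0055) and Pax5 at 2.48 (adjusted p = 0.018) passed without replicate 3 of the trIMs. With the replicate number as a block, under which same-numbered libraries are compared, Ms4a1 was called at 1.53 (adjusted p = 0.00687) and Pax5 at 1.51 (adjusted p = 0.0271), 7 genes in all. In WT, the count for matIMs against trIMs was 5 in place of 8 without replicate 1 of the trIMs, when Ebf1, Pax5 and Bank1 (adjusted p = 0.136, 0.114 and 0.0553) were lost. Ebf1 and Pax5 were lost there also without replicate 2 of the trIMs or replicate 1 or 3 of the matIMs, with an adjusted p of up to 0.143. The call of Pax5 for WT trIMs against moMs, which rests on 21 reads against 2, was lost without any 1 of the WT trIM or moM libraries or without replicate 3 of the WT matIMs, with an adjusted p of up to 0.117. That of Mzb1 in the same comparison was lost without replicate 3 of the WT moMs (adjusted p = 0.0535), and in Ezr-KOm without replicate 2 or 3 of the moMs or replicate 2 of the trIMs.

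The genotype comparisons ask whether loss of ezrin from macrophages changed these transcripts. In edgeR no member differed between Ezr-KOm and WT in moMs, trIMs or matIMs, where 0.171%, 0.164% and 0.152% of all genes did. No member reached an unadjusted p under 0.05 in any population, beside 3.74%, 3.24% and 3.84% of all genes, and DESeq2 likewise called none. The spread set what could be seen. For Cd79a the log2 difference was 1.04 in moMs (95% interval -0.48 to 2.57), 0.43 in trIMs (-0.35 to 1.20) and -0.31 in matIMs (-1.06 to 0.45). For Xbp1, the most deeply counted member, it was -0.10 (-0.56 to 0.36), -0.16 (-0.62 to 0.30) and -0.06 (-0.52 to 0.40). Mzb1 in matIMs gave -0.85 (-2.26 to 0.55), with 13 to 79 reads in the Ezr-KOm and 48 to 107 in the WT libraries. For Pax5 and Mzb1 in moMs no fold is given, since both genotypes were at or under 3 reads in each library.

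**Figure D3:**
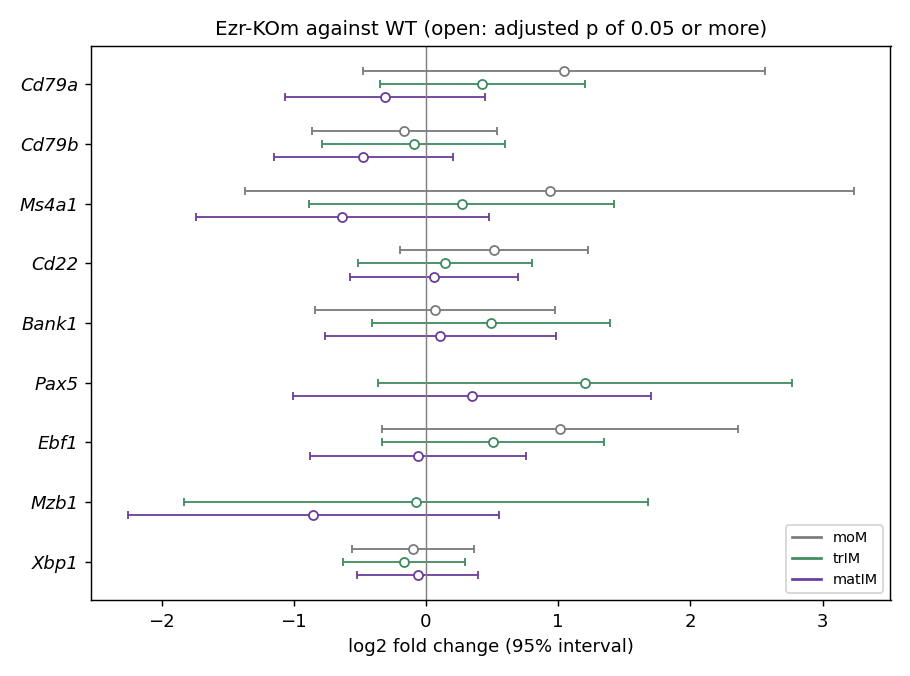
Log2 fold change of each transcript between Ezr-KOm and WT (horizontal axis, with 95% intervals) in moMs (grey), trIMs (green) and matIMs (purple), all open because no adjusted p was under 0.05. All intervals shown include 0, and they are narrowest for Xbp1, from -0.56 to 0.36 in moMs.

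A difference between the genotypes in the population steps was tested directly as an interaction. No member passed in any of the 3 interactions in edgeR or in DESeq2, and no unadjusted p was under 0.05, beside 0% of all genes at the adjusted and 1.47%, 1.7% and 1.16% at the unadjusted threshold. For Cd79a the step from moMs to matIMs was 1.35 log2 units smaller in Ezr-KOm, with a 95% interval of -3.05 to 0.35 for the difference. At this depth and spread, smaller differences of the low transcripts were not detectable.

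The proportions of the members within a library were close among matIM libraries for some members and not for others. Per 100 reads of Cd79a, WT matIMs held 56.4 to 59.0 reads of Ms4a1, 55.7 to 67.5 of Cd79b and 17.0 to 20.3 of Ebf1. Ezr-KOm matIMs held 39.8 to 51.2 of Ms4a1, 51.7 to 55.1 of Cd79b and 21.3 to 23.0 of Ebf1. Cd22 was less even, at 40.5 to 76.0 reads in WT and 54.9 to 95.1 in Ezr-KOm matIMs. Mzb1 ranged from 3.86 to 8.74 reads in WT and from 0.772 to 9.17 in Ezr-KOm matIMs, and from 1.45 to 4.19 in WT and from 0.140 to 4.13 in Ezr-KOm trIMs. The trIMs held more Ebf1 for their Cd79a, 23.8 to 41.0 reads in WT and 32.5 to 39.8 in Ezr-KOm, above all matIM libraries. In moMs the proportions were of another order, with 836.8 to 9400 reads of Bank1 and 1168 to 15500 of Cd79b per 100 of Cd79a. These ratios are given as a description, without a test.

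Mzb1 and the B cell genes differed in order among the Ezr-KOm libraries. Replicate 3 of the Ezr-KOm trIMs and of the Ezr-KOm matIMs had the highest Cd79a, Cd79b, Ms4a1, Cd22, Pax5, Ebf1 and Bank1 of their groups, and the lowest Mzb1, with 1 and 13 reads. The WT groups shared this order only in part. In WT matIMs the highest and the lowest Mzb1, in replicates 1 and 3, came with the highest and the lowest Cd79a and Ms4a1. Cd22 was highest there in replicate 3, at 35.2 CPM, as in Ezr-KOm. In WT trIMs the lowest and the highest Mzb1, in replicates 1 and 2, came with the lowest and the highest Cd22. Cd79a was lowest there in replicate 2, at 12.1 CPM. Over the deviations of the 18 libraries from their group means, on the log2 scale, Mzb1 had a correlation of -0.76 with Pax5, -0.73 with Cd22, -0.69 with Bank1 and -0.49 with Cd79a. Pax5 and Bank1 had one of 0.95, and Cd79a and Ebf1 one of 0.89. The same pairs had positive values over all 18 libraries, among which the population differences lie: 0.78 for Mzb1 and Pax5, and 0.99 for Cd79a and Ebf1. Over the deviations Xbp1 had 0.54 with Cd79a, 0.68 with Cd22 and -0.41 with Mzb1. Over all 18 libraries Xbp1 had -0.58, -0.48 and -0.65 with these genes. These values describe 18 points that share their sort, their scaling and in part a replicate number. All Mzb1 values of the moMs are 0, and Pax5 had at most 1 read in each moM library.

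**Figure D4:**
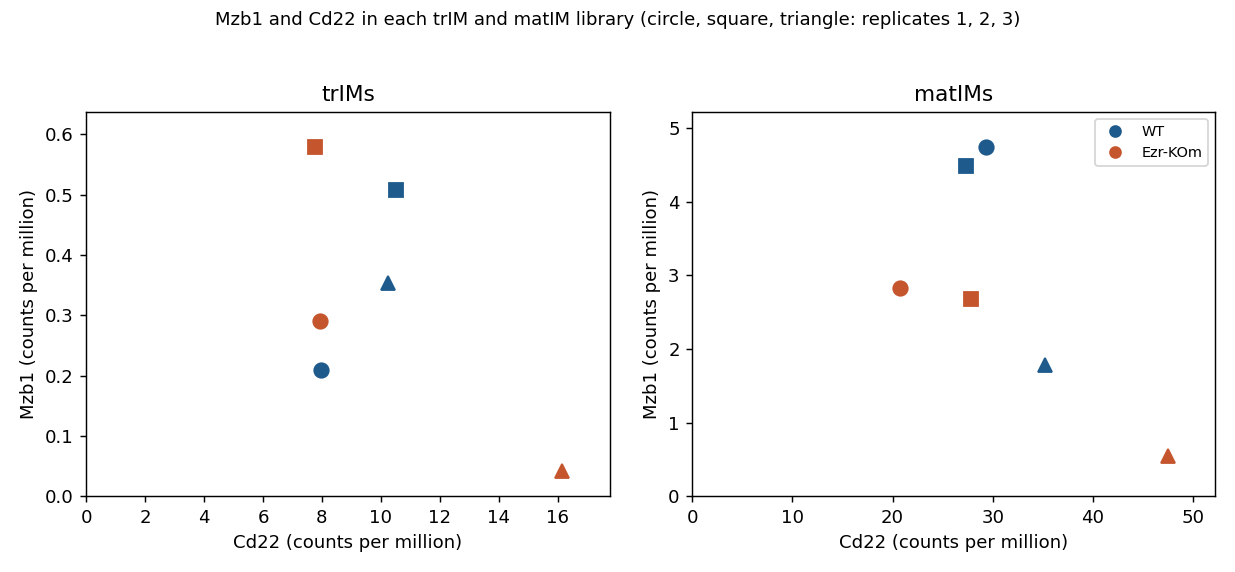
Mzb1 against Cd22 (both in CPM, linear axes from 0) in each trIM library (left) and matIM library (right), WT in blue and Ezr-KOm in orange, with the marker shape giving the replicate number. In both panels the library with the most Cd22, replicate 3 of Ezr-KOm with 16.2 and 47.5 CPM, has the least Mzb1, 0.0424 and 0.545 CPM.

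Plasma cell genes outside the members were read from a list of 12. In WT matIMs 7 were higher than in moMs and none lower, with a median log2 fold change of 2.61 beside 0.01 for all genes, and 7 were higher than in trIMs and Sdc1, the surface syndecan of plasma cells and of epithelia, was lower (median 1.96 beside 0.04). Jchain, the joining chain of secreted IgA and IgM, was at 0.521 ± 0.0153 CPM in WT moMs, 38.4 ± 13.5 in trIMs and 356 ± 87.9 in matIMs. Its log2 step from trIMs to matIMs was 3.21 (SE 0.43, adjusted p = 2.45e-05). The most abundant listed genes, Txndc5 and Sec11c of the secretory pathway and the regulator Prdm1, did not pass the test between WT matIMs and moMs (adjusted p = 0.303, 0.86 and 0.363), and Prdm1 averaged 138 CPM in WT moMs. Chosen after the values were seen, Sdc1, Fkbp11, Derl3 and the plasma cell receptor gene Tnfrsf17 had correlations of 0.66, 0.66, 0.62 and 0.59 with Mzb1 over the deviations from group means, on the same side as Jchain at 0.52, while Prdm1 and Irf4 had -0.40 and -0.43. The other listed genes, Eaf2, Ly6k, Sec11c, Txndc5 and Pou2af1, had 0.63, 0.56, 0.33, 0.11 and -0.19. Such values were not particular to this list. The stromal genes Col6a3 and Lum had 0.68 and -0.66, and the plasmacytoid dendritic cell genes Cox6a2 and Tcf4 0.53 and -0.44. Tnfrsf17 had no read in the 6 moM libraries. Tnfrsf17 and Pou2af1 had 3 reads or fewer in each WT moM library and entered the test through other groups. The count of listed genes higher than in moMs was thus in part set by the filter. Of all genes tested, 13.4% were higher in WT matIMs than in moMs and 8.32% than in trIMs.

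B cell genes outside the members, 19 in all, were counted in the same way. In WT matIMs 16 were higher than in moMs and none lower, with a median log2 fold change of 4.52, or 4.34 with the 4 genes that had 3 reads or fewer in each WT moM library set at their lower bound. Against trIMs 12 were higher (median 1.55) and Fcer2a, the low-affinity IgE receptor, named after its values were seen, was lower, at 28.0 CPM in WT trIMs and 11.4 CPM in WT matIMs (log2 -1.29, adjusted p = 0.0103). In Ezr-KOm 16 were higher against moMs (median 4.49) and 8 against trIMs (median 1.22), none lower. Of all genes tested, 13.4% were higher in WT matIMs than in moMs and 8.32% than in trIMs, and 12.5% and 8.37% in Ezr-KOm. The 4 genes set at a bound lay under the filter's limit in WT moMs and entered the test through other groups. The counts against moMs are thus no measure of how many listed genes could have failed to rise. H2-Ob, a chain that tunes peptide loading of MHC class II in B cells and some dendritic cells, went from 4.27 ± 0.157 to 92.5 ± 7.11 CPM from WT moMs to matIMs (log2 4.44, SE 0.26, adjusted p = 6.35e-10). Tnfrsf13b and Cd37, which other leukocytes express as well, were at 86.7 ± 13.3 and 75.3 ± 3.92 CPM in WT moMs and at 102 ± 2.58 and 68.7 ± 13.4 CPM in matIMs, a difference that did not pass the test (adjusted p = 0.455 and 0.665).

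The kinases and adaptors downstream of the receptor moved in both directions. Of 19 listed genes 7 were higher and 7 lower in WT matIMs than in moMs, with a median of -0.23, beside 13.4% higher and 11.4% lower of all genes tested. Lyn, a kinase that starts the signal and that myeloid cells use too, fell from 789 CPM in WT moMs to 466 in matIMs, by 0.76 on the log2 scale (SE 0.17, adjusted p = 0.00228). The phosphatase gene Ptpn6 (log2 -0.37, adjusted p = 0.0685) and the adaptor gene Pik3ap1 (log2 -0.24, adjusted p = 0.272) did not pass. The 7 that rose, named after their values were seen, included Blk, Blnk, Cd81, Vav2 and Dapp1, of which Blk is also in the list of B cell genes. Of 18 genes of the unfolded protein response, the programme that XBP1 serves, 7 were higher and Ern1, the sensor that splices Xbp1 mRNA, was lower in WT matIMs than in moMs (median 0.31), and only Herpud1 was higher than in trIMs (both named after their values were seen). Hspa5, the main chaperone of the endoplasmic reticulum, was at 3035 CPM in WT moMs and 3673 in matIMs (adjusted p = 0.423), Edem1, of the disposal of misfolded proteins, had a log2 difference of 0.28 (adjusted p = 0.17), and Pdia6, a disulphide isomerase, rose by 0.47 on the log2 scale (SE 0.15, adjusted p = 0.0279).

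Genes whose pattern was most like that of Cd79a were ranked by correlation of log2 CPM. Over the 18 libraries the first 8 outside the members and the immunoglobulin segments included Pou2af1 (0.98), Fcrla, Cd55, H2-Eb1, Ly6d, H2-Aa and Stap2 (0.97). The first 50 held 11 of the 168 immunoglobulin segments tested, 7 of the 19 other B cell genes, and the members Ebf1 and Ms4a1. Over the deviations from group means the first 8 were Iqcb1 (0.82), Nr3c2, Plgrkt, Gm31597, Ms4a4a, C630043F03Rik, Slc25a32 and Ctla4 (0.78), and the first 50 held 1 immunoglobulin segment, 1 member and none of the other B cell genes. Ebf1 was first of all genes in both rankings.

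Markers of other cells moved with these transcripts, and their part in the result was not tested. In WT matIMs 9 of 11 dendritic cell markers were higher than in moMs (median 4.64) and 8 higher than in trIMs (median 3.45). Of all genes tested, 13.4% and 8.32% were higher in these comparisons. Zbtb46, which marks conventional dendritic cells, rose by 5.09 on the log2 scale (SE 0.30, adjusted p = 1.07e-09) from WT moMs to matIMs. Ccl22, Ccr7 and Fscn1, which mark dendritic cells that migrate to lymph nodes, rose by 8.74, 7.08 and 9.17. Of 10 plasmacytoid dendritic cell markers tested, 5, named after their values were seen, were higher in WT matIMs than in moMs: Pacsin1, Atp1b1, Cd300c, Smim5 and Ly6d, which B cells express too and which is among the genes most like Cd79a. The defining marker Siglech was at 0.244 CPM in WT moMs, 0.611 in trIMs and 0.878 in matIMs (adjusted p = 0.113 for matIMs against moMs), and Tcf4 did not pass either (adjusted p = 0.64).

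T cell markers were low. Cd3e was at 2.06, 2.95 and 2.34 CPM in WT moMs, trIMs and matIMs (adjusted p = 0.722 for matIMs against moMs), and 2 of the 12 T cell markers, Cd4 and Cd8a, were higher in matIMs than in moMs, and dendritic cells can express both. These and the natural killer cell, neutrophil and complement genes that follow were named after their values were seen. Of 8 natural killer cell markers Klrd1 and Klre1 were higher and Klrb1c was lower, and the defining marker Ncr1 did not pass the test (adjusted p = 0.678). Stromal, endothelial and epithelial genes took another course than the B cell genes, highest in trIMs: Col1a1 was at 3.56, 20.2 and 3.55 CPM in WT moMs, trIMs and matIMs, Pecam1 at 40.0, 124 and 39.4 CPM, and Sftpc at 18.5, 1315 and 114 CPM. Of 10 neutrophil markers S100a9, Retnlg, Cxcr2 and Ltf were higher and Csf3r and Mmp8 lower in WT matIMs than in moMs, with S100a8 at 51.8 and 70.3 CPM (adjusted p = 0.335). Of 14 monocyte and macrophage markers the complement genes C1qa, C1qb and C1qc were higher and 8 were lower, with Csf1r at log2 -0.80 (adjusted p = 8.68e-05), and Lyz2 at log2 -1.83 (adjusted p = 1.24e-07).

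**Figure D5:**
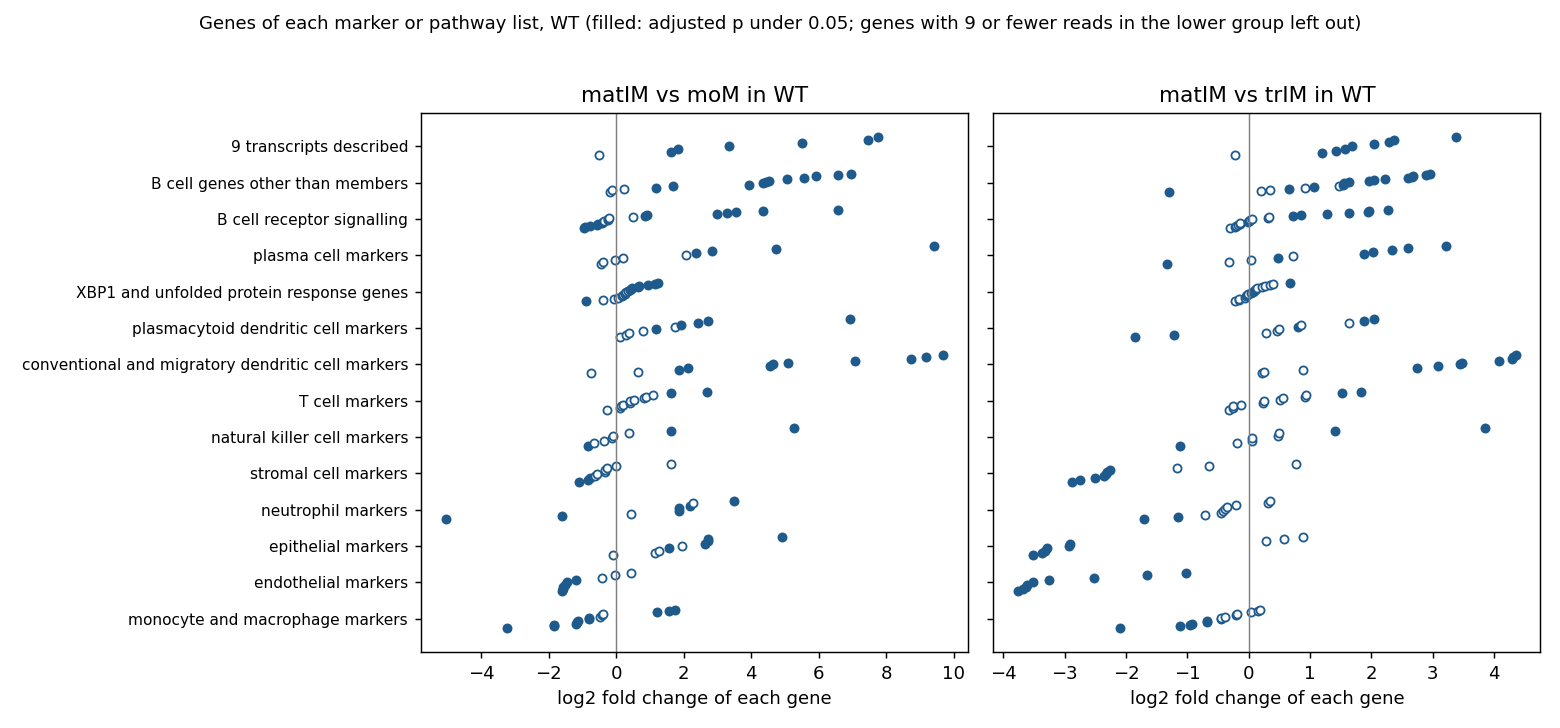
Log2 fold change of each gene of 14 lists in WT matIMs against moMs (left) and against trIMs (right), filled where the adjusted p is under 0.05, leaving out genes with 9 or fewer reads in the lower group. B cell genes lie mostly to the right in both panels, as do dendritic cell markers, whereas stromal, epithelial and endothelial markers lie mostly to the left of 0 against trIMs, with medians from -3.52 to -2.32.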

How the data were processed

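The authors prepared full-length cDNA libraries without strand (SMART-Seq v4) from sorted cells, aligned reads with STAR 2.7.9a to GRCm39 with the Gencode M29 annotation, and deposited raw counts per gene from STAR for 18 libraries; which of its strand columns was used is not given in the sources used here. From these counts, genes were filtered with filterByExpr, library sizes were scaled by TMM, and a two-sided quasi-likelihood test with 6 groups and all libraries was fitted in edgeR 4.0.16 (R 4.3.3), with Benjamini-Hochberg adjustment over the 15811 genes tested. A call is an adjusted p under 0.05. DESeq2 1.42.0, other scalings, filters, blocks and the omission of each library were alternatives. The members and lists were chosen with earlier results of these data known. Genes are named by a rule: the members, Ezr, the first and the 3 most abundant genes of each list, and the 8 most like Cd79a by each ranking; others are marked where named. Some list genes that the rule names are not reported here. Libraries of one number deviated together: correlations were over 0.1 for every pair in the 3 genotype comparisons and in trIMs against moMs and matIMs against trIMs (0.102 to 0.397), but reached down to 0.0905 in matIMs against moMs. The labels do not say whether same-numbered populations share a mouse, and p-values measure the spread between libraries. Members' exon lengths came from Gencode M39. Sequences came from RefSeq. No pair of replicates agreed within sampling noise. The tests were checked on counts simulated with independent libraries. That check does not cover libraries of one number that deviate together, or genes near 0 reads in only some groups. Depth limits each rare transcript: 3 reads are 0.0599 to 0.190 CPM.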

Additional observations from a re-analysis of the deposited data

How the results depend on the processing

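Scaling, filter, tool, robust fit, choice of samples, replicate block and the omission of single libraries were varied one at a time. The members' direction between populations changed only for Bank1 and Xbp1, in comparisons that did not pass the test. Where at least 10 counts were required in every library, 4 members were left to test, and the number called for trIMs against moMs, matIMs against moMs and matIMs against trIMs was 1, 3 and 3 in WT and 1, 3 and 2 in Ezr-KOm, with 1760 genes in all for WT matIMs against trIMs (2926 as reported), 1439 for Ezr-KOm trIMs against moMs (2257), 1837 for Ezr-KOm matIMs against trIMs (2881) and 13 for genotype in matIMs (24); fewer genes were tested there. DESeq2 called 55, 55 and 52 genes between genotypes in moMs, trIMs and matIMs, where edgeR called 27, 26 and 24. With only the compared libraries in the fit, 3 members were called for Ezr-KOm matIMs against trIMs, 7 genes differed by genotype in trIMs, and Ezr there was at -1.60 (adjusted p = 0.0709). Ezr in moMs, at -1.20 as reported (adjusted p = 0.0549), passed at -1.21 with library totals, -1.20 without a filter, -1.21 in DESeq2 and -1.20 with a robust fit. The cause was not tested.

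With the replicate number as a block, Ezr in moMs passed at -1.26, and 42 and 38 genes differed by genotype in moMs and matIMs. Under that block the genotype difference in matIMs turned to -0.0072 for Cd22 and -0.0133 for Bank1, and the interaction of matIMs against moMs for Bank1 to -0.10, or -0.13 with the mouse as block. The mouse block called 3403 genes for Ezr-KOm trIMs against moMs, and Xbp1 in matIMs against moMs at -0.50 in WT (adjusted p = 0.00349) and -0.45 in Ezr-KOm (adjusted p = 0.0073). Correlations of same-numbered libraries in that comparison were 0.0947 to 0.229 in WT and 0.0905 to 0.264 in Ezr-KOm. Those of different numbers were at most 0.00944 and 0.0316. Not every same-numbered pair there was over 0.1. The mouse block also called Ms4a1 at 1.57 (adjusted p = 0.00221) and Pax5 at 1.56 (adjusted p = 0.0188) for Ezr-KOm matIMs against trIMs. Beside these and those given with the results, neither block changed another call of a member.

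Leaving out 1 library at a time, the members called ranged from 5 to 8 for WT matIMs against trIMs and from 1 to 6 in Ezr-KOm, and the genes called from 1410 (without replicate 3 of the Ezr-KOm moMs) to 2428 for Ezr-KOm trIMs against moMs, from 13 to 26 for genotype in trIMs and from 15 to 26 in matIMs. Ezr ranged from -1.38 to -0.99 in moMs (adjusted p of up to 0.382, without replicate 2 of the Ezr-KOm moMs) and from -1.81 to -1.39 in trIMs, where the call was lost without replicate 1 of the WT trIMs (adjusted p = 0.0508). These log2 differences, none of which passed the test as reported, crossed 0. For genotype in matIMs the ranges were -0.35 to 0.33 (Bank1), -0.32 to 0.30 (Cd22), -0.49 to 0.19 (Ebf1), -0.40 to 0.65 (Pax5), -0.18 to 0.020 (Xbp1). For genotype in moMs the ranges were -0.12 to 0.17 (Bank1), -0.31 to 0.053 (Cd79b), -0.31 to 0.016 (Xbp1). For genotype in trIMs the ranges were -0.35 to 0.81 (Bank1), -0.25 to 0.33 (Cd22), -0.084 to 0.66 (Cd79a), -0.37 to 0.11 (Cd79b), -0.56 to 0.65 (Ms4a1), -1.03 to 0.40 (Mzb1), -0.38 to 0.066 (Xbp1). For the interaction of matIMs against moMs the ranges were -0.42 to 0.26 (Bank1), -0.081 to 0.26 (Xbp1). For the interaction of matIMs against trIMs the ranges were -0.85 to 0.47 (Bank1), -0.48 to 0.32 (Cd22), -1.24 to 0.18 (Mzb1), -1.61 to 0.21 (Pax5), -0.13 to 0.33 (Xbp1). For the interaction of trIMs against moMs the ranges were -0.42 to 0.75 (Bank1), -0.20 to 0.28 (Cd79b), -0.88 to 0.014 (Ebf1), -1.50 to 0.24 (Ms4a1), -0.28 to 0.18 (Xbp1). For trIMs against moMs in Ezr-KOm the range was -0.38 to 0.80 (Bank1). For trIMs against moMs in WT the range was -0.16 to 0.20 (Bank1). For matIMs against trIMs in Ezr-KOm the range was -0.27 to 0.079 (Xbp1).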
